A study of Mus musculus with 2 samples.

Results

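The 5 genes described here encode the enolase isozymes (Eno1, Eno2 and Eno3) and the aldolase isozymes Aldoa and Aldoc. They were taken by gene symbol from the transcript tables of both libraries, and all 5 had counts, out of 17859 annotated mouse genes with counts. The libraries came from gastrocnemius, the large fast muscle of the calf, of male B6CASTF1/J mice (an F1 hybrid of a C57BL/6 and a CAST strain) at an age of 4 days. They are 2 biological replicates of a single untreated group, each made from 2 µg of total RNA and read as long molecules. The labels name separate biosamples but 1 shared donor entry, so whether the replicates are 2 mice is not settled, and every comparison below is between 2 libraries and not between conditions. Counts of the parental alleles are not separated in the tables.

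Aldolase splits fructose bisphosphate into a pair of triose phosphates in the middle of glycolysis, and enolase makes phosphoenolpyruvate near its end. Each enzyme comes as isozymes from separate genes. Eno1 encodes alpha enolase, found in most tissues and dominant in the embryo, Eno3 the beta form of striated muscle, and Eno2 the gamma form of neurons. Aldoa encodes the aldolase of muscle and many other tissues, and Aldoc that of brain. During muscle development beta enolase replaces much of the alpha form, and Aldoa is known to have several promoters, of which 1 is muscle specific.

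Replicate 1 held 1066347 counts and replicate 2 held 1100253, of which 998659 (93.7%) and 1026257 (93.3%) were on annotated mouse genes, the denominator of the CPM values used below, which scale every library to the same total. Of 7 skeletal muscle markers all were counted in both libraries, and together they held 14.5% and 14.6% of the counts, but 4 were called higher in replicate 2 and 2 lower by the test described below. Of these Atp2a1, the calcium pump of fast fibres, fell from 46378 to 26573 counts and Tnnc2, the fast troponin C, rose from 11098 to 16264. Markers of other cells differed as well. The 6 Schwann cell genes gave 1457 and 3596 counts, the 5 epidermal genes 4 and 869 (Krt1, Krt5, Krt14 and Lor at 0 in replicate 1), the 4 fibroblast genes 35033 and 23701 (Col1a1 and Col3a1 called lower, Dcn called higher and Pdgfra not called), and the 8 neuronal genes 10 and 15, with Snap25, Syt1 and Elavl4 at 0 in both. What part these differences have in the values below was not tested. In tissue RNA, fewer cells of a type and less RNA per cell cannot be told apart.

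The sequences shown first are those on which the Eno1 isoforms divide. The gene Eno1 (ENSMUSG00000063524.13, 4:150236721-150248879, plus strand, mm10) holds 2 coding exons of 59 bases that follow exon 3, here called A (4:150241767-150241825) and B (4:150242122-150242180). They lie 296 bases apart, A starts 626 bases after exon 3, and exon 5 starts 1824 bases after B. In GENCODE M21, B is exon 4 of the full-length transcript Eno1-202, and A is exon 4 of the partial transcript Eno1-205. The exon at the same place is also 59 bases long in Eno3 (11:70658389-70658447) and in Eno2 (6:124767540-124767598, minus strand). Letters in capitals differ from exon A at that position.
Eno1 exon A: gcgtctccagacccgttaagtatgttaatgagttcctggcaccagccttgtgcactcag
Eno1 exon B: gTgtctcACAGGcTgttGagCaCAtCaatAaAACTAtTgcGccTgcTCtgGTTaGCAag
Eno3 exon 4: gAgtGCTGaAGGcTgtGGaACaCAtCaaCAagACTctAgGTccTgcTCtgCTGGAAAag
Eno2 exon 4: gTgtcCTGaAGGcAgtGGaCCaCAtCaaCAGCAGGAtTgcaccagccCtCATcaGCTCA
Exon B differed from exon A at 29 of 59 bases. Eno3 exon 4 differed from A at 34 bases and from B at 19, and Eno2 exon 4 from A at 33 and from B at 21. Read in the frame of Eno1-202, the exon touches residues 61 to 80, counted from the initiator methionine as 1. The 2 forms are both 434 residues long and differ at 11 of these 20 residues (64, 65, 67, 68, 69, 71, 72, 73, 78, 79 and 80), with 6 further codons changed without a change of residue. Over these residues Eno3 differed from the A form at 12 and from the B form at 6, and Eno2 at 12 and 7. A transcript with neither exon would end its reading frame after 70 residues, and one with both after 101.

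Each exon has its own splice sites, shown because the choice between A and B is a choice between them. Capitals mark the AG before the exon and the GT after it. The acceptor lines hold 20 intronic and 3 exonic bases, and the donor lines 3 exonic and 6 intronic bases.
Eno1 exon A acceptor: tattcacctctaatgggcAGgcg
Eno1 exon B acceptor: ttcatgattgttccttctAGgtg
Eno1 exon A donor: cagGTaaca
Eno1 exon B donor: aagGTagga
Both have the usual AG and GT. In the 18 bases before the AG, A has 11 pyrimidines and B has 14.

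The promoter windows shown are for Eno3 and Aldoa, the members with the highest levels. They are the 250 bases before the RefSeq start of Eno3 (11:70656926-70657175, plus strand) and before a start of the Aldoa first exon used most (7:126799255-126799504, minus strand). A further RefSeq start lies inside that exon, at 126799178. No RefSeq start lies at the 45-base first exon of Aldoa described below, so no window is shown for it. The windows come from RefSeq on GRCm38.p6, where all 5 members matched with 10 starts in all. Capitals mark the E-box CANNTG, which reads alike on both strands.
Eno3 promoter: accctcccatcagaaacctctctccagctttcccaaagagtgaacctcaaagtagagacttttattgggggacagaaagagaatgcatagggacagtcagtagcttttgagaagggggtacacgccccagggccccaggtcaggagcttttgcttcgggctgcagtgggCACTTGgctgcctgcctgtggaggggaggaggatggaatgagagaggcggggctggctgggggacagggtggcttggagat
Aldoa promoter: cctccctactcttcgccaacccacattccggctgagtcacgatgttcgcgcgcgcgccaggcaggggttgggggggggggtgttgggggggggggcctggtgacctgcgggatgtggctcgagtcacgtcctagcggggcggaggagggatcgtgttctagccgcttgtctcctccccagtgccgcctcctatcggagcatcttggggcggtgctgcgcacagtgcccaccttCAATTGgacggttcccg
Each window holds 1 E-box, and 66.2% of all 32851 promoter windows of this length hold at least 1. Neither window holds TATAAA on either strand, a motif found in 12.4% of the windows, nor a MEF2 site, found in 2.92%. The windows are 57.2% and 67.6% G or C, against a mean of 53.2%.

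Muscle beta enolase led its family. Eno3 (ENSMUSG00000060600.15, 11:70657202-70662513) had 5764 counts in replicate 1 and 6983 in replicate 2, or 5772 and 6804 CPM (6288 ± 730, mean ± SD, n = 2 libraries). It ranked 11 and 10 among all genes by count. Its level was higher in replicate 2 by 0.24 on the log2 scale (95% interval of counting 0.19 to 0.29). Eno1 had 1065 and 963 counts, or 1066 and 938 CPM (1002 ± 90.6), and ranked 66 and 79. It was lower in replicate 2, by −0.18 (interval −0.31 to −0.06).

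Eno3 and Eno1 moved in opposite directions between the libraries. Each of 11027 genes was set against the rest of its library with Fisher's exact test (two-sided, Benjamini-Hochberg over all of them), and the adjusted p was 2.86e-18 for Eno3 and 0.0441 for Eno1. The test holds counting error only, and 1074 genes (9.74%) were called with it, 579 higher in replicate 2 and 495 lower. The call for Eno1 was lost with other scalings (adjusted p = 0.0665 with TMM and 0.159 with DESeq2 size factors). With a preset biological coefficient of variation (BCV) of 0.2 in edgeR's exact test neither gene was called (adjusted p = 1.00 for both).

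The neuronal gene Eno2 (ENSMUSG00000004267.16) was near the limit of detection, with 5 and 3 counts (5.01 and 2.92 CPM). Its reads were spread over 6 intron chains, of which 1 was seen in both libraries. Eno4, a further enolase gene, had 0 counts in both, and the Eno1 copy Eno1b is described below.

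As a share of the counts on Eno1, Eno2 and Eno3, Eno3 held 84.3% of the 6834 in replicate 1 (exact Clopper-Pearson 95% interval 83.5 to 85.2) and 87.8% of 7949 in replicate 2 (87.1 to 88.6), a mean of 86.1 ± 2.48% (n = 2). Eno1 held 15.6% and 12.1% (13.8 ± 2.45%), and Eno2 0.0732% and 0.0377%. There were 5.41 Eno3 counts per Eno1 count in replicate 1 and 7.25 in replicate 2 (6.33 ± 1.30). Per kilobase of the longest annotated transcript detected (1564 bases for Eno3, 2027 for Eno1), the levels were 4020 ± 467 CPM per kilobase for Eno3 and 495 ± 44.7 for Eno1, and the Eno3 share was 88.9 ± 2.03%. The Eno1 length is that of Eno1-202, which starts at 150236952. The leading Eno1 structure starts at 150237240 and is shorter, and with its length the Eno3 share would be lower. A count is 1 read at any transcript length, so the share by counts is the main value.

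**Figure D1:**
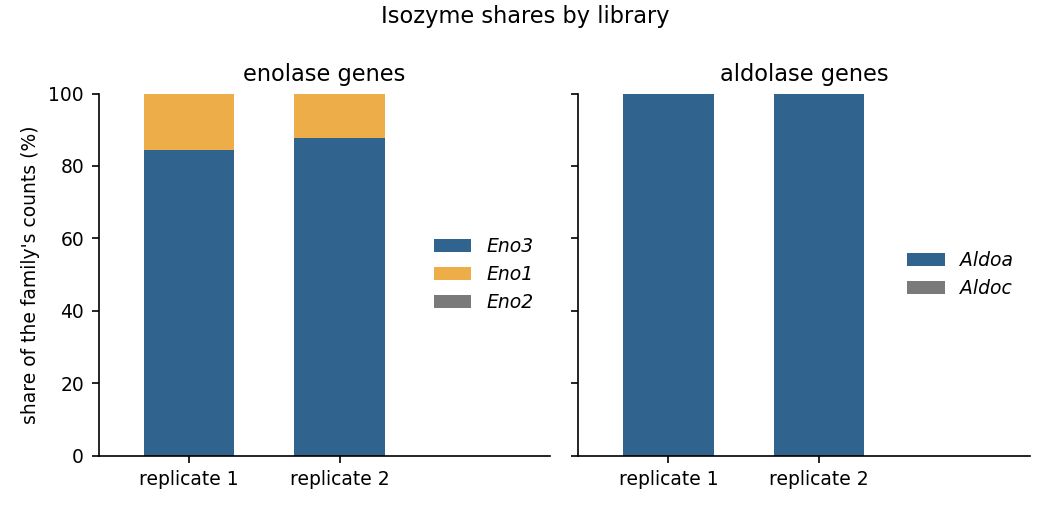
Share of the counts of the enolase genes (left) and the aldolase genes (right) in each library, in percent, as stacked bars. Eno3 takes 84.3% and 87.8% of enolase counts, Eno2 is too small to see, and Aldoa fills the aldolase bars.

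Aldolase counts were almost all from Aldoa (ENSMUSG00000030695.16, 7:126795234-126800751, minus strand). It had 5591 and 6134 counts, or 5599 and 5977 CPM (5788 ± 268, n = 2), and ranked 12 and 13 among all genes. It was called higher in replicate 2, by 0.09 on the log2 scale (Fisher's exact test, adjusted p = 0.00735), and with a preset BCV of 0.2 it was not called (adjusted p = 1.00). Per kilobase (1549 bases) its level was 3736 ± 173 CPM, beside 4020 ± 467 for Eno3. Within each library Eno3 was the higher, at 3690 against 3614 in replicate 1 and 4351 against 3859 in replicate 2. By counts the ratio of Eno3 to Aldoa was 1.03 (interval 0.994 to 1.07) and 1.14 (1.10 to 1.18). The difference was not tested.

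Aldoc (ENSMUSG00000017390.15, 11:78322968-78327781), the brain form, had 0 counts in replicate 1 and 4 in replicate 2, 3 of these on the annotated transcript Aldoc-201. A count of 0 among 5591 aldolase counts allows a share of up to 0.0537% by the limit of 3 counts and 0.0660% by the exact interval, and the 4 counts were 0.0652% of 6138 (interval 0.0178 to 0.167%). In all 5 members held 1.24% of annotated gene counts in replicate 1 and 1.37% in replicate 2. For Eno2 and Aldoc the depth does not allow a comparison of the libraries.

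The other glycolytic genes set these levels in their pathway. Of 20 genes listed from hexokinase to lactate dehydrogenase, 17 had enough counts to test, 4 were called higher in replicate 2 (Eno3, Aldoa, Pgam2 and Ldha) and 5 lower (Eno1, Hk2, Gpi1, Pfkm and Pkm), beside 9.74% called over all genes. With a preset BCV of 0.2 in edgeR's exact test 0 of the 17 were called, and 56 of all genes. Their median log2 ratio was −0.06, beside −0.04 over all genes tested. Pgam2, the muscle phosphoglycerate mutase that acts just before enolase, had 1219 and 1743 CPM (adjusted p = 5.70e-20, Fisher's exact test), while its widely expressed counterpart Pgam1 had 100 and 104. Tpi1, which interconverts the products of aldolase, had 2178 and 2341 CPM (adjusted p = 0.111). Pkm, the pyruvate kinase that uses the product of enolase, had 3814 and 2923 CPM (adjusted p = 2.01e-25). Of the list's counts Eno3 held 21.9 ± 2.01%, Aldoa 20.2 ± 0.436% and Eno1 3.50 ± 0.402% (n = 2). Gapdh enters these shares with 56 and 51 counts only. Whether these counts reflect its level was not tested, so the shares hold for the counts as assigned.

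**Figure D2:**
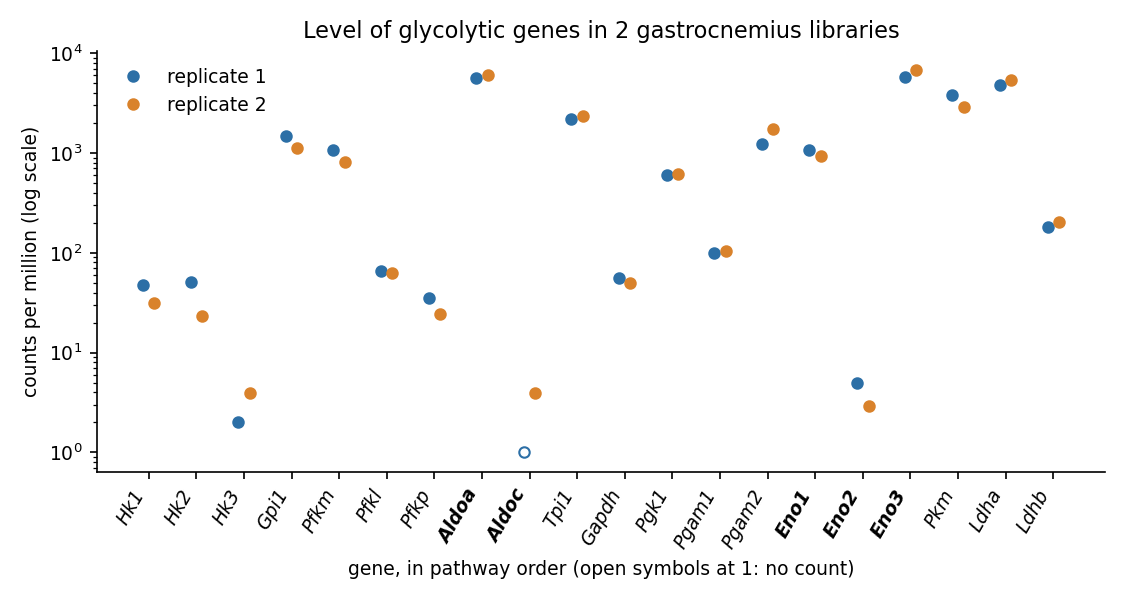
CPM on a log scale for 20 glycolytic genes in pathway order, with 1 point per library, members in bold, and an open symbol at 1 for a library without counts of the gene. By the counts as assigned, Eno3 and Aldoa are the highest points, at 5772 and 6804 and at 5599 and 5977 CPM. Eno2 and Aldoc lie under 6 CPM. Gapdh stands at 56.1 and 49.7 CPM, and whether that reflects its level was not tested.

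The genes nearest to each member in level, by Euclidean distance between the log2 CPM values of the 2 libraries, included other members. Nearest to Eno3 were Aldoa (distance 0.192) and Slc25a4, the ADP/ATP carrier of muscle mitochondria (0.249). Nearest to Aldoa were Slc25a4 (0.169) and Eno3. Nearest to Eno1 were Sypl2, a membrane protein gene of the muscle triad (0.0799), and Eif4g2, a translation factor gene (0.0877). Eno2 shared its counts exactly with 55 other genes. These distances rest on 2 libraries.

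Most of the Eno1 counts with exon A or B had exon A. In replicate 1, 884 of 1037 counts with A or B had A (85.2%, interval 82.9 to 87.4), and in replicate 2, 724 of 930 (77.8%, interval 75.0 to 80.5), a mean of 81.5 ± 5.23% (n = 2). Exon B was in 153 (14.8%) and 206 (22.2%) counts. A was the more used exon in both libraries. In CPM the A form stood at 885 and 705 and the B form at 153 and 201.

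The exons excluded each other. Only 1 and 4 counts held both, 0 and 1 spliced from exon 3 to exon 5 past both, 6 and 3 retained the sequence between them, 7 and 5 began at A or B, 0 and 1 used another splice site, and 14 and 19 did not reach the region. These counts stayed out of the shares. The leading structure had 12 exons and began at 150237240. It held 870 and 707 counts (77.6 ± 5.85% of Eno1), and it combines annotated splice sites in a way that no M21 transcript does (class NIC), since A is annotated only in the partial Eno1-205. With Known models alone the A share would be 0%. Eno1-202, with B, held 152 and 202 counts (17.6 ± 4.74%). Both forms use the first donor 150237340, which took 97.3% and 96.7% of spliced counts (adjusted p = 1.00, Fisher's exact test).

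**Figure D3:**
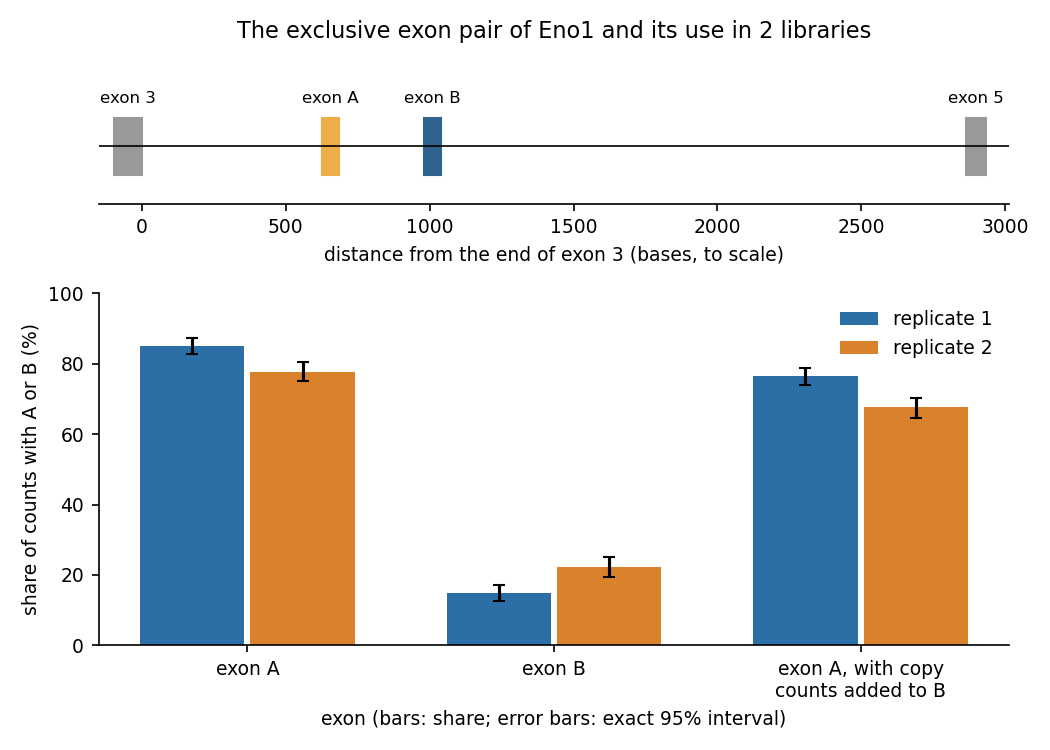
Map of exons A and B of Eno1 between exons 3 and 5, to scale in bases from the end of exon 3 (top), and the share of counts with A or B in each library with exact 95% intervals (bottom). Exon A is used more in both libraries, at 85.2% and 77.8%, and at 76.5% and 67.6% when counts of the near-identical copies are added to B.

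The difference in exon use between the libraries sat at the threshold of the test. Over counts with the exon or with an intron that spans it, B was included at 14.8% and 22.3% (two-sided Fisher's exact test, adjusted p = 0.0402), and A in 85.3% and 77.9% (adjusted p = 0.0529). Of 16789 exons tested across all genes, 7 (0.0417%) were called. With a minimum of 10 counts in place of 20 the adjusted p was 0.0517 for B and 0.0681 for A, with a minimum of 50 it was 0.0236 and 0.0310, and with Known, NIC and NNC models alone 0.0295 and 0.0419, so 1 change in 1 pair of exons falls on either side. The test holds counting error only.

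Near-identical copies of Eno1 make its level and exon shares uncertain. A search of the coding sequence against M21 transcripts found 17 copies, and 2 of them had counts: Eno1b (99.4% identical, 105 and 130 counts) and Gm4735 (99.6%, 14 and 11 counts). Eno1b is annotated as protein coding and Gm4735 as a processed pseudogene. Both copies carry exon B without a mismatch and differ from A at 29 bases, and all but 1 of their counts were on single-exon models. Their counts came to 11.2 and 14.6 per 100 Eno1 counts. Counted as exon B of Eno1, they bring the A share to 76.5% and 67.6% (72.0 ± 6.27%). Whether these reads came from Eno1 or from the copies was not tested. Reads left uncounted because they fit Eno1 and a copy alike would not hold A, and their number is not known. The 15 copies found for Aldoa, among them Aldoart1 (94.2% identical) and Aldoart2 (91.9%), had no counts, and no copy was found for Eno2, Eno3 or Aldoc.

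Nearly all Aldoa transcripts began at 1 of 4 first exons and went on, directly or through a further exon, to the same exon (7:126797644-126797776), exon 2 of Aldoa-201, where translation starts at 126797755. By distance upstream of that exon they are called here proximal (7:126799045-126799254, 210 bases, Aldoa-201), short (7:126800002-126800046, 45 bases, Aldoa-210), distal (7:126800288-126800447, Aldoa-203) and most distal (7:126800505-126800751, Aldoa-207, whose transcript also includes part of the distal exon). All 4 are noncoding.

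The proximal and the short exon shared nearly all counts. Shares were taken over counts with an annotated first exon upstream of exon 2. The proximal exon was in 2745 of 5359 such counts in replicate 1 (51.2%, interval 49.9 to 52.6). In replicate 2 it was in 3387 of 5856 (57.8%, 56.6 to 59.1). The mean was 54.5 ± 4.68% (n = 2). The short exon was in 2525 (47.1%, 45.8 to 48.5) and 2342 (40.0%, 38.7 to 41.3), a mean of 43.6 ± 5.04%. The distal exon had 76 (1.42%) and 112 (1.91%) counts, and the most distal 9 (0.168%) and 13 (0.222%). Another 232 (4.15%) and 278 (4.53%) Aldoa counts had no annotated first exon upstream of exon 2 and stayed out of these shares. They include 87 and 98 counts with the first donor 126797337, and 42 and 54 with 126797644. Both donors are annotated as first donors, but not upstream of exon 2. Among the counts left out, first donors upstream of the most distal exon held 5 and 4 counts (126808870), 0 and 1 (126808685) and 0 and 1 (126802625). That exon is thus the most distal of the 4 named exons only.

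**Figure D4:**
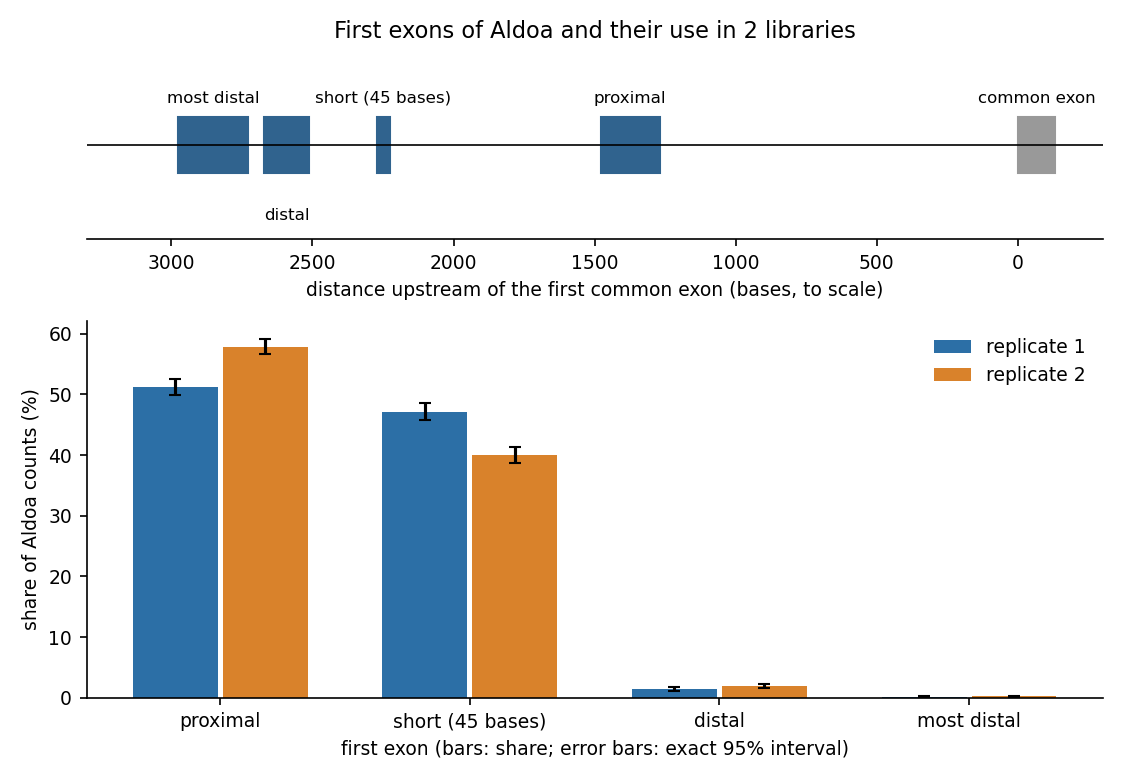
Map of the 4 first exons of Aldoa, to scale in bases upstream of the first common exon (top), and the use of each in both libraries, with exact 95% intervals (bottom). Shares are of the Aldoa counts with an annotated first exon upstream of the first common exon. The proximal exon leads at 51.2% and 57.8%, and the short exon follows at 47.1% and 40.0%.

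The use of the proximal exon differed between the libraries. Over all first donors of Aldoa it took 49.2% of 5583 counts and 55.3% of 6125 (two-sided Fisher's exact test over 5359 genes, adjusted p = 2.21e-08), and 23 of those genes (0.429%) were called. With first donors limited to annotated ones that no transcript uses internally, the values were 52.0% and 59.0% (adjusted p = 1.13e-10), and 6 of 1327 genes (0.452%) were called. As for genes and exons, these p-values hold counting error only, and the preset BCV was not applied to first donors. In CPM, transcripts with the proximal exon stood at 2749 and 3300, and those with the short exon at 2528 and 2282.

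The transcript with the short exon is not complete in the annotation. The leading model with it had 9 exons, ran from 126795234 to 126800046, was of class NIC, and held 2498 and 2317 counts (41.2 ± 4.88% of Aldoa), while Aldoa-210 ends early. Aldoa-201, with the proximal exon, held 2683 and 3304 counts (50.9 ± 4.15%), and Aldoa-203 75 and 106 (1.53 ± 0.273%). With Known models alone, 97.1% of counts would fall on the proximal exon.

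The rest of the Aldoa transcript varied little. An optional exon between the first exons and that exon (7:126797974-126798126, 153 bases), which holds the upstream start of translation of Aldoa-202, was in 59 of 5365 counts (1.10%) and 63 of 5875 (1.07%), with an adjusted p of 1.00 by Fisher's exact test. It was in 1.53% and 1.45% of counts that began at the proximal exon and in 0.673% and 0.555% of those that began at the short one. The 4 coding exons that could be tested each made up at least 99.9% of the counts with the exon or with an intron spanning it. Intron 2 of Aldoa, 95 bases long, was retained in 1.65% and 1.92% of counts and every other intron in at most 0.247%. Of the 91 and 116 counts that retained intron 2, 87 and 96 were on 1 intron chain. That chain begins inside exon 2, at 126797751, and holds none of the 4 first exons. The second gene record named Aldoa (ENSMUSG00000114515.2, 7:126800790-126809108) had 0 counts assigned to it. Within its span lies the first donor 126808870, which 5 and 4 counts assigned to the main Aldoa record used.

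Eno3 transcripts differed in the leader. Exon 2 began at 70657872 in 2821 of 4785 counts (59.0%, interval 57.5 to 60.4) and 3620 of 5942 (60.9%, 59.7 to 62.2), and at 70657760 in 41.0% and 39.1%. The upstream acceptor adds 112 bases of 5′ untranslated sequence, since translation starts at 70657874. The intervals of the libraries overlap for both acceptors, whose difference was not tested.

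**Figure D5:**
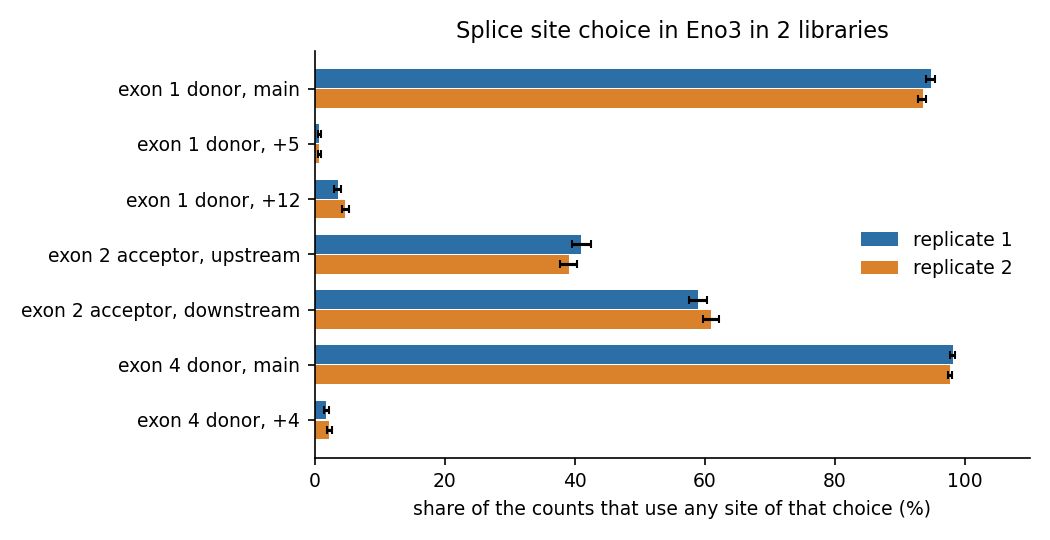
Share of counts at the alternative splice sites of Eno3 in each library, in percent, with exact 95% intervals, where +5, +12 and +4 are bases downstream of the main donor. The downstream exon 2 acceptor takes 59.0% and 60.9%, and the main donors of exons 1 and 4 take at least 93.5%.

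Exon 1 ended at 70657267 in 94.8% and 93.5% of counts, 12 bases further in 3.51% and 4.66%, and 5 bases further, at an unannotated donor, in 0.669% and 0.724%. Exon 4, the counterpart of the Eno1 pair, ended 4 bases further downstream, also at an unannotated donor, in 101 (1.79%) and 151 (2.21%) counts. This shifts the reading frame. Skipping of an exon was rare: each of the 9 Eno3 exon forms tested made up at least 98.6% of the counts with that form or with an intron spanning it. The intron retained most often was intron 7, at 0.906% and 0.764%. The leading first donor took 78.8% and 79.6% of all spliced counts and was not called (adjusted p = 1.00, Fisher's exact test).

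By model, Eno3-201 held 2554 and 3236 counts (45.3 ± 1.44%), Eno3-202, with the longer exon 2, 1828 and 2121 (31.0 ± 0.948%), and Eno3-206 735 and 729 (11.6 ± 1.63%). Eno3-206 begins at 70657796, 36 bases inside the longer exon 2, so it cannot be told from Eno3-202 molecules that lost their 5′ end. Eno3-201 molecules cut off within exon 2 would have the same intron chain, so these counts cannot be assigned to 1 form of the leader. Annotated (Known) models held 88.8% and 87.2% of Eno3 counts, 50.1% and 56.4% for Aldoa, and 14.4% and 21.6% for Eno1. Models seen in both libraries by intron chain held 98.0 to 99.4% of the counts of these 3 genes (55 of 155 chains for Eno3, 24 of 84 for Aldoa and 15 of 42 for Eno1).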

How the data were processed

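Long-read RNA sequencing was done on 2 gastrocnemius libraries. Per the file headers, the deposited tables follow the TALON format and give for each transcript model of a library the authors' count of its reads, unscaled. A second deposited file holds each model's exons on mm10. The readme beside the files names GENCODE M21 as the annotation. The authors' aligner, platform and tool versions: not given in the sources used here. Models are classed as Known, as ISM (a part of a known intron chain), as NIC (known splice sites newly combined), as NNC (with a splice site outside the annotation) or as genomic. The classes were used as deposited. Some models of class NIC hold a donor that M21 does not have, such as 70658451 of Eno3.

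Gene counts were sums over all these classes, and intron chains served to match models between libraries. Spike-ins (2.47% and 1.37% of counts) and unannotated loci (3.88% and 5.36%) stayed out of CPM and tests. Genes with at least 10 counts in sum, and first donors and exons with at least 20 counts in each library, were compared between libraries with Fisher's exact test (two-sided, scipy 1.17.1) and Benjamini-Hochberg adjustment at 0.05. The log2 ratios use a prior count of 0.5. Intervals are at 95%, a count of 0 allows 3 counts, and both cover counting error only. The tests were checked on simulated counts that held counting error only, so the check does not cover other variation between libraries. Exon positions, splice sites and copies came from M21 (blastn 2.17.0+, at least 300 aligned bases) and promoters from RefSeq. Alternatives were edgeR 4.0.16 TMM and exact test, DESeq2 1.42.0 size factors, other minimums, narrower classes and each library alone.

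Named were the members, their family genes and copies with counts, the glycolysis list, the 2 genes nearest in level to each member, and models with at least 5% of a member's counts. The members and lists were chosen with earlier results of these data known. One gene of these lists is not reported here.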

Additional observations from a re-analysis of the deposited data

Results flagged for a closer look

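Opposite the strand of Eno1, unannotated loci held 6 counts in replicate 2, above the 3 counts that a count of 0 allows, and 3 in replicate 1. No other member had more than 1 count on unannotated loci over its span.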

How the results depend on the processing

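The Eno3 share of enolase counts (86.1%) became 96.9% with Known models alone, which drop the leading Eno1 structure. Per length of the longest annotated transcript detected it was 88.9%. With the counts of copies added to the family it was 84.6%. The proximal first exon of Aldoa (54.5%) became 97.1% with Known models alone, and exon A of Eno1 (81.5%) became 0%, since their other main structures are of class NIC. Exon A became 72.0% with the counts of copies added to B, an alternative chosen after seeing the data. On their own, the 2 libraries gave 84.3 to 87.8% for the Eno3 share, 99.9 to 100% for Aldoa in aldolase, 51.2 to 57.8% for the proximal exon and 77.8 to 85.2% for exon A. Of all genes, 1074 were called, 1065 with TMM, 1029 with DESeq2 size factors and 56 with a preset BCV of 0.2. First donors were called for 23 genes, for 11 with Known, NIC and NNC models alone, and for 6 with annotated donors that are never internal (added after seeing the data). Exons called were 7, and 13 with Known, NIC and NNC models alone, and the cause was not tested. The adjusted p of the Aldoa first donor stayed between 1.13e-10 and 2.61e-08 over 5 settings. Known models alone also lowered the levels of Eno1 (1002 to 178 CPM), Aldoa (5788 to 3087), Eno3 (6288 to 5527) and Eno2 (3.96 to 1.48). With all counts as denominator the level of Aldoa was 5409 CPM. With Known models alone the leading Eno1 exon turned from A to B. No log2 ratio and no difference in site use between the libraries changed sign. No paired analysis was possible because the series has 1 group. Depth limits Eno2 and Aldoc, with at most 5 counts a library.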
